A study of Mus musculus with 20 samples.

Results

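The Cyp3a cytochromes P450 were followed in the livers of male mice through 8 genes of the counts table, Cyp3a11, Cyp3a13, Cyp3a16, Cyp3a25, Cyp3a41a, Cyp3a41b, Cyp3a44 and Cyp3a59, listed by symbol out of 36106 genes. The list was made with earlier results of these data known, and 3 other rows with a Cyp3a symbol are described at the end. Some of the mice had undergone orchiectomy, the removal of the testes, where most testosterone is made, and the others a sham operation. They were exposed for 2 weeks to normal air (normoxia) or to intermittent hypoxia, repeated drops in oxygen used to model sleep apnoea. The groups were orchiectomy with intermittent hypoxia (ORX_IH, n = 5), orchiectomy with normoxia (ORX_Nx, n = 5), intermittent hypoxia after the sham operation (Sham_IH, n = 5) and normoxia after the sham operation (Sham_Nx, n = 4 of 5 labelled mice, mouse 1 not analysed here). No 2 libraries share an animal, and neither strain nor age is stated by the labels. Bulk liver RNA was sequenced, so that more cells of a type and more RNA per cell cannot be told apart in any value below.

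CYP3A enzymes sit in the endoplasmic reticulum of hepatocytes and enterocytes, take electrons from cytochrome P450 reductase, and oxidize drugs, steroids and bile acids, including the 6-beta hydroxylation of testosterone. Their genes are classical targets of the pregnane X receptor (PXR, Nr1i2) and the constitutive androstane receptor (CAR, Nr1i3). In mice some members are expressed in both sexes, Cyp3a11 most of all, while Cyp3a41 and Cyp3a44 are known as female-predominant liver genes whose expression depends on the pattern of growth hormone secretion, and Cyp3a16 as a gene of fetal and newborn liver. Cyp3a13 is also a gene of the intestine.

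The genes are listed in the counts table as ENSMUSG00000056035 (Cyp3a11), ENSMUSG00000029727 (Cyp3a13), ENSMUSG00000038656 (Cyp3a16), ENSMUSG00000029630 (Cyp3a25), ENSMUSG00000075551 (Cyp3a41a), ENSMUSG00000075552 (Cyp3a41b), ENSMUSG00000054417 (Cyp3a44) and ENSMUSG00000061292 (Cyp3a59). The members lie in a row on chromosome 5 in the reference gene order, in the order Zscan25, Cyp3a57, Cyp3a16, Cyp3a41b, Cyp3a41a, Cyp3a44, Cyp3a11, Cyp3a25, Cyp3a59 and Gm5565, except for Cyp3a13, which stands apart between Pilrb2 and Gjc3. They form close pairs in sequence, which matters for counting because reads were assigned to transcripts. Cyp3a41a and Cyp3a41b were identical at 99.9% of aligned coding bases, and Cyp3a25 and Cyp3a59 at 97.5%. Cyp3a11 shared 94.9% with Cyp3a44 and 95.2% with Cyp3a41a, but 76.1% with Cyp3a25. The part of each gene's 31-base words that occurs in no other gene's transcripts was 99.8% for Cyp3a13, 84.3% for Cyp3a11, 72.7% for Cyp3a16, 54.1% for Cyp3a25, 51.6% for Cyp3a44, 50.1% for Cyp3a59, 4.13% for Cyp3a41b and 0.148% for Cyp3a41a. Counts of Cyp3a41a and Cyp3a41b are therefore given as one pair wherever their sum matters, and counts of Cyp3a44 and Cyp3a59 rest on the parts of their transcripts that differ from their relatives. A stretch of 60 coding bases, positions 263 to 322 of the coding sequence counted from 1 at the A of the start codon, shows how the members differ where reads must tell them apart. Capitals mark bases that differ from Cyp3a11 (transcripts of GENCODE M21).
Cyp3a11: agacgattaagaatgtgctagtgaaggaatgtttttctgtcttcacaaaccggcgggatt
Cyp3a41a: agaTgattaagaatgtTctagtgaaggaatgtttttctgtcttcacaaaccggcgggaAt
Cyp3a44: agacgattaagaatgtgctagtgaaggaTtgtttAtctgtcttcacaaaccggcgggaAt
Cyp3a25: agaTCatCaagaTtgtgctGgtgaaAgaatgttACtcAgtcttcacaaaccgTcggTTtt
Cyp3a59: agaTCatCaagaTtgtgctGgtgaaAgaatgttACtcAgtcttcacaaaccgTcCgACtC
In this stretch Cyp3a41a and Cyp3a44 each differed from Cyp3a11 at 3 of 60 bases, Cyp3a25 at 12 and Cyp3a59 at 14, and Cyp3a41b had the same letters as Cyp3a41a.

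**Figure D1:**
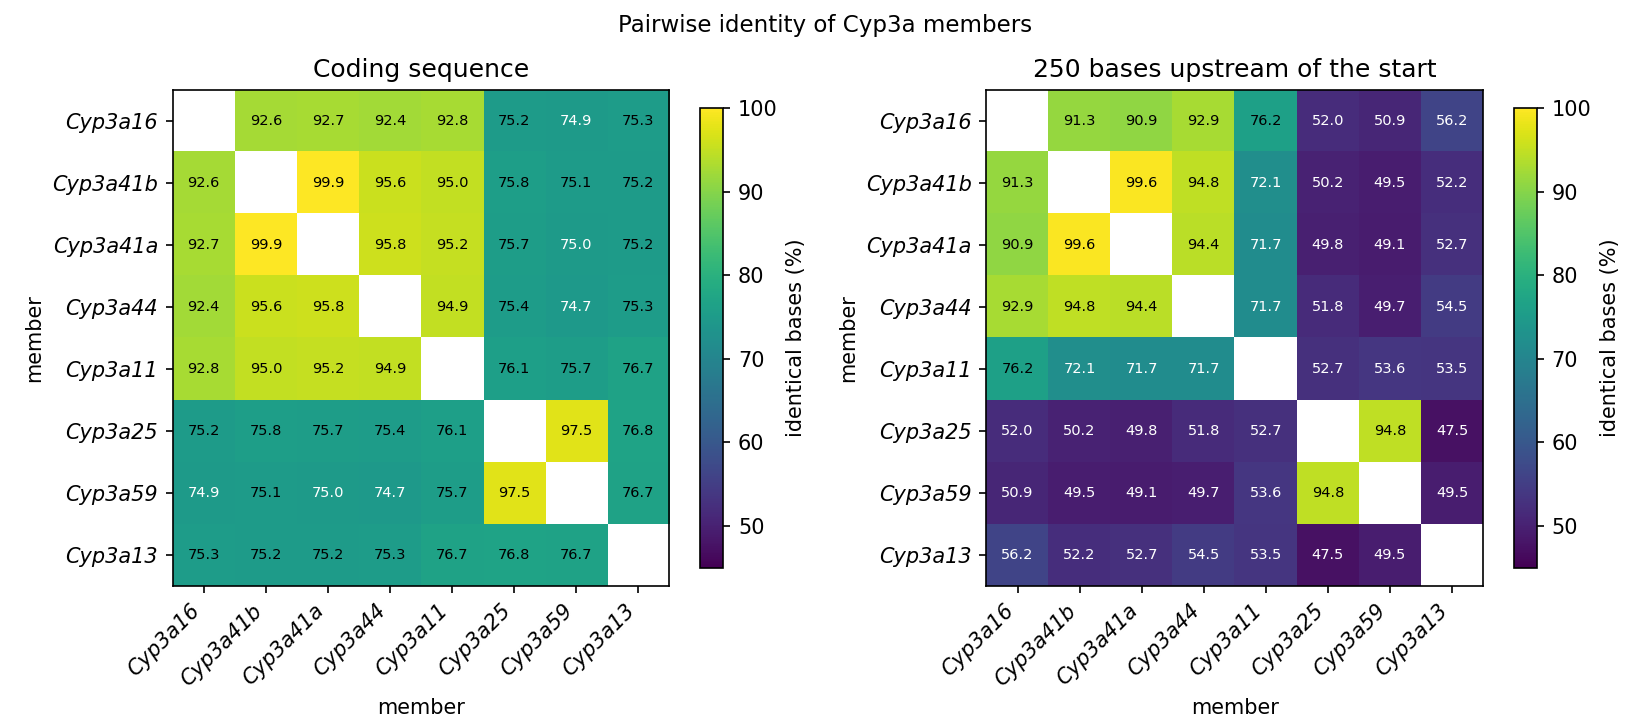
Percentage of identical bases between each pair of members in the aligned coding sequences (left) and in the 250 bases upstream of the annotated start (right), with dark colours low and yellow high. Cyp3a16, Cyp3a41b, Cyp3a41a and Cyp3a44 form a block of at least 90.9% upstream, Cyp3a11 leaves that block upstream (71.7% to 76.2%) although its coding sequence is close to theirs (92.8% to 95.2%), and Cyp3a25 and Cyp3a59 form a pair.

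The upstream sequences are shown for the members whose levels differ most between the groups of mice and for their abundant relatives. Each run is the 200 bases before the annotated start in RefSeq on build GRCm38.p6, an older build than the GRCm39 of the deposited counts, written in the direction of the gene. Capitals mark 4 motifs, in either orientation: ATTGAT (the core bound by HNF6 and CUX2), TGTTTAC (forkhead factors) and the nuclear receptor motifs AGGTCA and AGTTCA.
Cyp3a44 (chr5:145805875-145806074, minus strand): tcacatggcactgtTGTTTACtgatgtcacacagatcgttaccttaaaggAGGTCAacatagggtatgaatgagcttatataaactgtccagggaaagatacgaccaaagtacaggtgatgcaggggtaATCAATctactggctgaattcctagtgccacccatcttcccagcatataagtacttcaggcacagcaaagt
Cyp3a41a (chr5:145720137-145720336, minus strand): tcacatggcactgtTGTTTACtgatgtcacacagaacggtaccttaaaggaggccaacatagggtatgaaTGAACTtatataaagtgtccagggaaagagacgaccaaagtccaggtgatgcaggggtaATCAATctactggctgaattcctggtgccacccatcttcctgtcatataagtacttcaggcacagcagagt
Cyp3a11 (chr5:145879855-145880054, minus strand): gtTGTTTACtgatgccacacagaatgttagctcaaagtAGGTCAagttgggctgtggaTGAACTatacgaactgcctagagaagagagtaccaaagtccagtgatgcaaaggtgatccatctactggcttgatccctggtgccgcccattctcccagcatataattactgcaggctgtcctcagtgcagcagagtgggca
Cyp3a25 (chr5:146009619-146009818, minus strand): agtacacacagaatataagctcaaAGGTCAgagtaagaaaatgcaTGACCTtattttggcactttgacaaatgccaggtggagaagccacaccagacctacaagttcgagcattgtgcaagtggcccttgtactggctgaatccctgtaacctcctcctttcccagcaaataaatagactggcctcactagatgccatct
Cyp3a59 (chr5:146079058-146079257, plus strand): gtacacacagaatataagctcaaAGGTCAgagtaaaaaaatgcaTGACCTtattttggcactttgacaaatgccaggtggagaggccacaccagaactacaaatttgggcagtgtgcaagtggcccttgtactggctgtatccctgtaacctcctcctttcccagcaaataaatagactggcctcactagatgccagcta

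ATTGAT was present once in Cyp3a44, Cyp3a41a, Cyp3a41b and Cyp3a16, at 71 to 75 bases before the start, and in none of Cyp3a11, Cyp3a13, Cyp3a25 and Cyp3a59. Of 32851 promoters of the same table and length (250 bases before to 50 after the start), 7.54% held it on either strand. TGTTTAC was present in Cyp3a44, Cyp3a41a, Cyp3a41b, Cyp3a16 and Cyp3a11, against 3.65% of all promoters. AGGTCA stood once in Cyp3a44 and Cyp3a11 and at 2 places in Cyp3a25 and Cyp3a59, against 16.3% of all promoters, and AGTTCA in Cyp3a11, Cyp3a41a and Cyp3a41b, against 14% of all promoters. No match of one of these motifs overlapped a match of another in the windows shown. TTCNNNGAA (STAT factors, in 8.3% of all promoters) and NACGTG (hypoxia response core, 19.6%) had no match in any of the 8 windows. The paired everted and direct repeats bound by PXR had none either, beside 0.0304% and 0.07% of all promoters. Repeats this rare would seldom occur in 8 windows, so their absence says little about the members. These matches describe letters in short windows and say nothing of binding in these livers.

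The libraries held between 29.3 and 69.6 M estimated counts, and the detection floor of 3 counts lay between 0.0431 and 0.102 CPM of the raw totals. CPM, the count scaled to library size, was otherwise adjusted by the trimmed mean of M-values (TMM). As a check of the operation, 5 androgen-dependent liver genes (Mup20, Cyp4a12a, Elovl3, Hsd3b5 and Cyp2d9) were read first, and all 5 were called lower by edgeR after orchiectomy in both exposures, with median log2 differences of -5.38 in normoxia and -4.63 under intermittent hypoxia. All 8 hepatocyte markers were detected in every group, and the intestinal markers Alpi and Cdx2 were at 0 in every group. The other 5 intestinal genes in the table had counts, and the list summed to 424.6 to 1581 CPM in ORX_IH, 283 to 1629 CPM in ORX_Nx, 658.8 to 1771 CPM in Sham_IH and 903.2 to 3428 CPM in Sham_Nx mice. Several libraries stood apart in other marker lists. The 14 skeletal muscle genes summed to 1139 and 677 CPM in ORX_IH mice 1 and 2 and to 191 and 48.2 CPM in Sham_Nx mice 2 and 3, against at most 13.8 CPM elsewhere. The 13 pancreatic genes summed to 1402 CPM in Sham_IH mouse 5, 588 CPM in Sham_Nx mouse 5 and 251 CPM in ORX_IH mouse 1. ORX_Nx mice 4 and 5 had the highest macrophage sums (1165 and 744 CPM) and acute phase sums (35260 and 27460 CPM). P-values set differences between groups against the spread between separate mice, which edgeR estimated over all groups together.

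Per length, the order of the abundant members was the same in all 4 groups. In RPKM (CPM per kilobase, from the length column of the counts table), Cyp3a11 averaged 1291 ± 418.5 in ORX_IH, 1073 ± 145.5 in ORX_Nx, 1293 ± 99.6 in Sham_IH and 956 ± 139.3 in Sham_Nx mice (SD). Cyp3a25 followed with 374 ± 90.7 in ORX_IH, 289 ± 38.6 in ORX_Nx, 493 ± 34.8 in Sham_IH and 317 ± 56.3 in Sham_Nx mice. Cyp3a13 lay lower again, at 74.8 ± 9.27 in ORX_IH, 64.1 ± 9.91 in ORX_Nx, 69.9 ± 8.93 in Sham_IH and 53.1 ± 7.02 in Sham_Nx mice. Cyp3a59, although almost the twin of Cyp3a25 in sequence, averaged 15.3 ± 5.66, 13.1 ± 3.31, 15.8 ± 3.96 and 7.53 ± 2.17 RPKM in the same order of groups. The ranges of these 4 genes did not overlap one another in any group. Among the low members Cyp3a44 averaged 3.397 ± 1.62 RPKM in ORX_IH and 1.42 ± 1.19 RPKM in ORX_Nx mice, and Cyp3a41a 0.347 ± 0.309 and 0.450 ± 0.390 RPKM, with ranges that did not overlap in ORX_IH but did in ORX_Nx mice. In Sham_IH (0.118 ± 0.149 RPKM) and Sham_Nx mice (0.0245 ± 0.0304 RPKM) the range of Cyp3a44 overlapped that of Cyp3a41a (0.0270 ± 0.00774 and 0.0300 ± 0.0168 RPKM). The 8 genes together took 0.373 ± 0.0955% of all counts in ORX_IH, 0.312 ± 0.0288% in ORX_Nx, 0.360 ± 0.0216% in Sham_IH and 0.262 ± 0.0368% in Sham_Nx mice. Of this sum Cyp3a11 made up 70.8% to 80.4% in every library.

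Of the 8 members 6 passed the filter on low counts that left 16164 genes, and the other 2, Cyp3a16 and Cyp3a41b, are given as counts. Cyp3a44 and Cyp3a41a passed only through the orchiectomized groups, so their being among the tested genes already depended on a difference, and counts over tested members carry no weight of their own. In ORX_Nx against Sham_Nx mice 3 members were called higher by edgeR's quasi-likelihood test at an adjusted p under 0.05 and none lower, beside 7.88% of all tested genes called higher and 6.46% lower. They were Cyp3a44, Cyp3a41a and Cyp3a59, and the libraries of the groups did not overlap in Cyp3a44 and Cyp3a41a, beside 5.69% of all tested genes separated upwards. In ORX_IH against Sham_IH mice 2 members, Cyp3a44 and Cyp3a41a, were called higher, beside 1.31% of all genes, and none was called lower, beside 1.57%. The same 2 members did not overlap between these groups, beside 2.77% of all tested genes separated upwards. The balance of calls over all genes moved with the scaling: in normoxia 54.9% of the called genes were higher after orchiectomy with TMM, 67.1% with upper quartile scaling and 86.4% without scaling factors, which put the median log2 difference of all genes at 0.14 in place of 0.01. Under intermittent hypoxia the same shares were 45.4%, 57.2% and 85.5%.

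Cyp3a44, a female-predominant member in mice, showed the largest differences of the family after orchiectomy. It was at 7.54, 4.41, 3.65, 10.4 and 4.14 CPM in ORX_IH mice 1 to 5 and at 2.03, 6.16, 2.15, 1.53 and 0.726 CPM in ORX_Nx mice 1 to 5. In Sham_IH mice 1 to 5 it was at 0.0718, 0.130, 0.0275, 0.142 and 0.675 CPM, and in Sham_Nx mice 2 to 5 at 0, 0.0367, 0.0161 and 0.121 CPM. Every orchiectomized library lay above every sham library, although ORX_Nx mouse 5 (26.0 counts) and Sham_IH mouse 5 (38.0 counts) came close. Sham_Nx libraries rested on 0 to 7.00 counts each and 10.0 in all, against 26.0 to 328.7 counts per library in ORX_Nx mice. The 12 lymphocyte genes separated the operations in the same way, with sums of 6.556 to 15.06 CPM in ORX_IH and 8.568 to 20.33 CPM in ORX_Nx mice, against 3.843 to 5.181 CPM in Sham_IH and 4.425 to 6.297 CPM in Sham_Nx mice. Their part in the differences of Cyp3a44 and of Cyp3a41a was not tested.
In normoxia the level rose by 5.75 ± 0.89 on the log2 scale (SE), a fitted 54.0-fold difference with a 95% interval of 16.2 to 179.6 (edgeR adjusted p = 0.000453). Under intermittent hypoxia it rose by 4.72 ± 0.68, or 26.3-fold with an interval of 10.4 to 66.6 (edgeR adjusted p = 0.000496). Exact two-sided permutation tests gave p = 0.0159 and 0.00794, the smallest that 5 against 4 and 5 against 5 libraries allow. Any gene whose groups do not overlap gives these values, so they add nothing to the separation described above. The call held in each of 34 other fits of either comparison, with log2 differences between 5.12 and 7.18 in normoxia and between 4.43 and 5.99 under intermittent hypoxia. The normoxia value was 5.12 without ORX_Nx mouse 2 and 6.95 without Sham_Nx mouse 5, and that under intermittent hypoxia was 5.88 without Sham_IH mouse 5.
Set against its abundant relative, Cyp3a44 had 226 ± 116 counts per 100000 Cyp3a11 counts in ORX_IH and 105 ± 82.3 in ORX_Nx mice, against 7.02 ± 8.18 in Sham_IH and 1.92 ± 2.12 in Sham_Nx mice. Each orchiectomized library had at least 37.9 per 100000 and each sham library at most 21.3. Whether reads of Cyp3a11 entered the counts of Cyp3a44 was not tested.

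**Figure D2:**
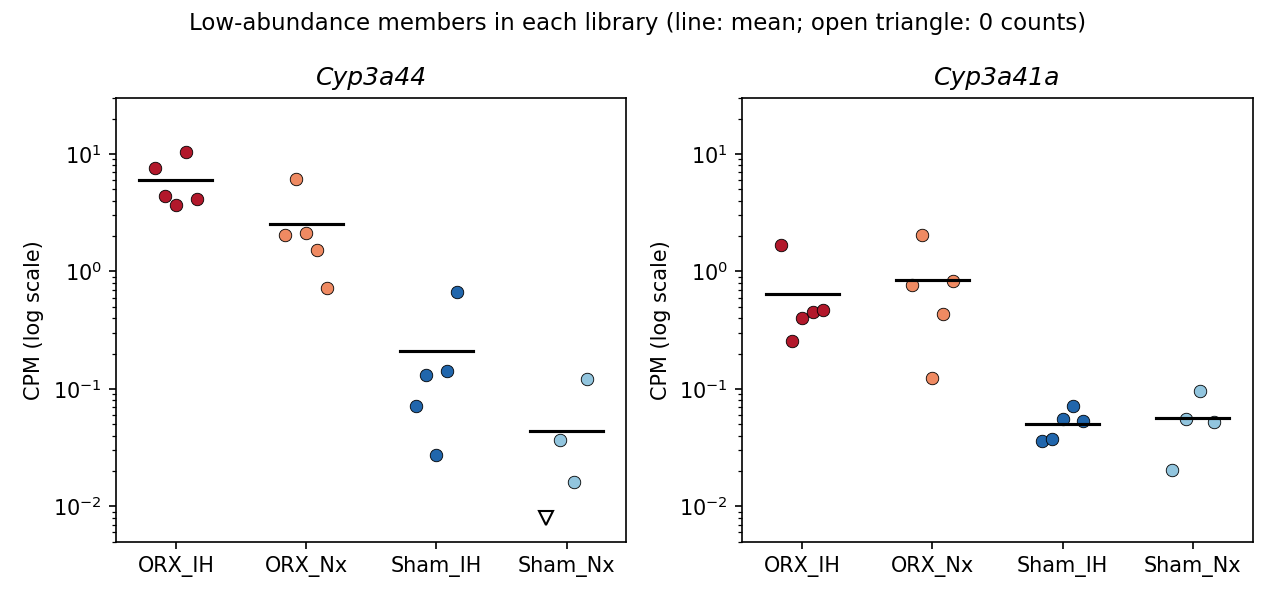
CPM on a log axis of Cyp3a44 and Cyp3a41a in each library (points) by group, with the group mean as a line and an open triangle for the Sham_Nx library with 0 counts. For both genes every ORX_IH and ORX_Nx library lies above every Sham_IH and Sham_Nx library.

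Cyp3a41a, the other female-predominant member, was at 1.67, 0.258, 0.399, 0.452 and 0.466 CPM in ORX_IH mice 1 to 5 and at 0.770, 2.04, 0.124, 0.437 and 0.838 CPM in ORX_Nx mice 1 to 5. It was at 0.0359, 0.0372, 0.0550, 0.0710 and 0.0533 CPM in Sham_IH mice 1 to 5 and at 0.0203, 0.0551, 0.0969 and 0.0519 CPM in Sham_Nx mice 2 to 5. All orchiectomized libraries lay above all sham libraries here too, with the lowest, ORX_Nx mouse 3, next to Sham_Nx mouse 4. It rose by 3.81 ± 0.75 on the log2 scale in normoxia (14.1-fold, interval 5.09 to 38.9, edgeR adjusted p = 0.00345) and by 3.61 ± 0.71 under intermittent hypoxia (12.3-fold, interval 4.64 to 32.3, edgeR adjusted p = 0.00851). The exact permutation p was 0.0159 in normoxia and 0.00794 under intermittent hypoxia, again fixed by the lack of overlap. The sham values were 0.920 to 5.78 estimated counts per library. The highest libraries were ORX_Nx mouse 2 and ORX_IH mouse 1, and the second of these is among those with muscle and pancreatic genes. Under intermittent hypoxia the call ended with limma-voom (adjusted p = 0.131), without the 4 libraries highest in muscle genes (3.04 ± 0.70, adjusted p = 0.0702) and without the 3 highest in pancreatic genes (2.90 ± 0.74, adjusted p = 0.0888). In normoxia limma-voom ended it (adjusted p = 0.0628). Leaving out 1 library ended neither call, but the difference was 3.17 in normoxia without ORX_Nx mouse 2 and 2.88 under intermittent hypoxia without ORX_IH mouse 1.
Cyp3a41b, its near-identical copy, had 7.19 estimated counts in ORX_Nx mouse 1, 0 in all other orchiectomized libraries and between 0.034 and 0.28 in each sham library. The sum of Cyp3a41a and Cyp3a41b was 10.1 to 116.4 counts in ORX_IH and 9.00 to 109.0 in ORX_Nx libraries, against 1.00 to 4.00 in Sham_IH and 1.00 to 6.00 in Sham_Nx libraries, and the summed pair rose by 3.85 ± 0.75 on the log2 scale in normoxia and by 3.61 ± 0.71 under intermittent hypoxia (edgeR adjusted p = 0.0032 and 0.00846).

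Cyp3a16, the member known from fetal and newborn mouse liver, was at the edge of detection. It had 23.0 counts over all 19 libraries: 6.00 in ORX_IH, 8.00 in ORX_Nx, 6.00 in Sham_IH and 3.00 in Sham_Nx mice. No single library had more than 7.00 counts, and a difference between groups was not detectable at this depth. Its 250 upstream bases were 92.9% identical to those of Cyp3a44 and held the same ATTGAT and TGTTTAC motifs.

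Intermittent hypoxia alone was compared in Sham_IH and Sham_Nx mice, a comparison that shares the Sham_Nx libraries with orchiectomy in normoxia. No member was called by edgeR, beside 0.099% of all genes called higher and 0.204% lower. At an unadjusted p under 0.05, for which the share of all tested genes was not computed, there were 5 members, all higher. DESeq2 called 2 of them, Cyp3a25 and Cyp3a59, and limma-voom and limma-trend none. In 4 members (Cyp3a11, Cyp3a13, Cyp3a25 and Cyp3a59) every Sham_IH library lay above every Sham_Nx library, beside 4.31% of all tested genes with such a separation upwards. The summed CPM of the 8 hepatocyte markers separated in the same way, at 120700 to 128100 in Sham_IH and 96740 to 110000 in Sham_Nx mice. That of the 20 acute phase genes did too, at 18520 to 23990 in Sham_IH and 15130 to 17460 in Sham_Nx mice. Relative to all libraries, the mean log2 level of the acute phase genes overlapped, at -0.79 to -0.21 in Sham_IH and -0.78 to -0.47 in Sham_Nx mice. That of the hepatocyte markers did not, at 0.17 to 0.24 in Sham_IH and -0.23 to 0.09 in Sham_Nx mice. The part of these marker genes in the differences of the members was not tested.

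Cyp3a25, an abundant member expressed in adult liver, gave the highest values in Sham_IH mice. It was at 412.9, 620.2, 483.3, 774.8 and 652.8 CPM in ORX_IH mice 1 to 5 and at 448.8, 476.0, 547.6, 390.2 and 415.2 CPM in ORX_Nx mice 1 to 5. It was at 688.2, 822.1, 796.4, 815.7 and 761.6 CPM in Sham_IH mice 1 to 5 and at 432.7, 491.5, 446.3 and 627.2 CPM in Sham_Nx mice 2 to 5. Each Sham_IH library lay above every library of the other groups except ORX_IH mouse 4. The difference of Sham_IH from Sham_Nx was 0.64 ± 0.16 on the log2 scale, 1.56-fold with an interval of 1.26 to 1.92, with an edgeR adjusted p of 0.0765 and an exact permutation p of 0.0159. In a fit of these groups alone the adjusted p was 0.0156, without ORX_Nx mice 4 and 5 0.0465 and without ORX_IH mouse 4 0.0498. In ORX_IH against ORX_Nx mice the difference was 0.37 ± 0.15 (edgeR adjusted p = 0.196). In ORX_IH against Sham_IH mice it was -0.40 ± 0.15 (edgeR adjusted p = 0.156), and without ORX_IH mouse 4, the highest of its group, -0.52 (adjusted p = 0.0437).

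Cyp3a59 was at 15.5, 24.6, 22.6, 42.3 and 30.97 CPM in ORX_IH mice 1 to 5 and at 20.8, 20.9, 29.4, 16.2 and 29.5 CPM in ORX_Nx mice 1 to 5. It was at 21.4, 30.2, 23.0, 39.1 and 27.1 CPM in Sham_IH mice 1 to 5 and at 9.47, 14.4, 11.4 and 18.4 CPM in Sham_Nx mice 2 to 5. Sham_Nx mice had the lowest mean, and the ranges of the other groups overlapped one another. In normoxia orchiectomized mice exceeded sham mice by 0.80 ± 0.26 on the log2 scale (1.74-fold, interval 1.22 to 2.49, edgeR adjusted p = 0.0494, exact permutation p = 0.0317), a value just inside the threshold. Leaving out any of 14 of the 19 libraries moved it outside, and the highest adjusted p was 0.1435, without Sham_Nx mouse 2. The call remained without ORX_IH mouse 1 or 4, ORX_Nx mouse 4, Sham_IH mouse 4 or Sham_Nx mouse 5. Limma-voom, limma-trend, no filter and a fit of the compared groups alone also moved it outside (adjusted p between 0.0537 and 0.0737), as did leaving out the 4 libraries highest in muscle genes (0.64 ± 0.30, adjusted p = 0.224) or ORX_Nx mice 4 and 5 (0.82 ± 0.29, adjusted p = 0.0850). Sham_IH exceeded Sham_Nx mice by 1.07 ± 0.27 (2.11-fold, interval 1.47 to 3.02, edgeR adjusted p = 0.0797, exact permutation p = 0.0159), and without ORX_Nx mice 4 and 5 the adjusted p was 0.0465. It took 0.36% to 1.16% of the family's counts.

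Cyp3a13, which stands apart from the row of members on the chromosome, was at 237.7, 229.2, 175.5, 193.4 and 201.5 CPM in ORX_IH mice 1 to 5 and at 171.3, 156.5, 153.6, 221.1 and 185.9 CPM in ORX_Nx mice 1 to 5. It was at 169.5, 212.7, 191.8, 224.2 and 169.9 CPM in Sham_IH mice 1 to 5 and at 118.7, 159.6, 150.3 and 159.8 CPM in Sham_Nx mice 2 to 5. Sham_Nx again had the lowest mean, and only ORX_Nx mice 2 and 3 fell within its range. Sham_IH differed from Sham_Nx mice by 0.40 ± 0.13 on the log2 scale (edgeR adjusted p = 0.163) and ORX_IH from ORX_Nx mice by 0.22 ± 0.12 (edgeR adjusted p = 0.338).

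Cyp3a11, the main PXR-inducible member in mouse liver, was called in none of the comparisons by edgeR with TMM scaling and every library. Without scaling factors edgeR called it in ORX_IH against Sham_Nx mice (0.53, adjusted p = 0.04705). DESeq2 called it for intermittent hypoxia averaged over both operations (0.35, adjusted p = 0.0405). It was at 1796, 2921, 2219, 4185 and 2847 CPM in ORX_IH mice 1 to 5 and at 2157, 2489, 2741, 2310 and 1915 CPM in ORX_Nx mice 1 to 5. It was at 2701, 2787, 2717, 2616 and 3168 CPM in Sham_IH mice 1 to 5 and at 2075, 1952, 1767 and 2479 CPM in Sham_Nx mice 2 to 5. ORX_IH mice had both the lowest and the highest value outside Sham_Nx, and the other groups were narrower. For orchiectomy the intervals of the log2 difference ran from -0.19 to 0.52 in normoxia and from -0.34 to 0.33 under intermittent hypoxia, both below the intervals of Cyp3a44 and Cyp3a41a. For intermittent hypoxia in sham mice the difference was 0.44 ± 0.18, or 1.35-fold with an interval of 1.06 to 1.73 (edgeR adjusted p = 0.300, exact permutation p = 0.0159), and in orchiectomized mice 0.27 ± 0.17 (edgeR adjusted p = 0.449).

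**Figure D3:**
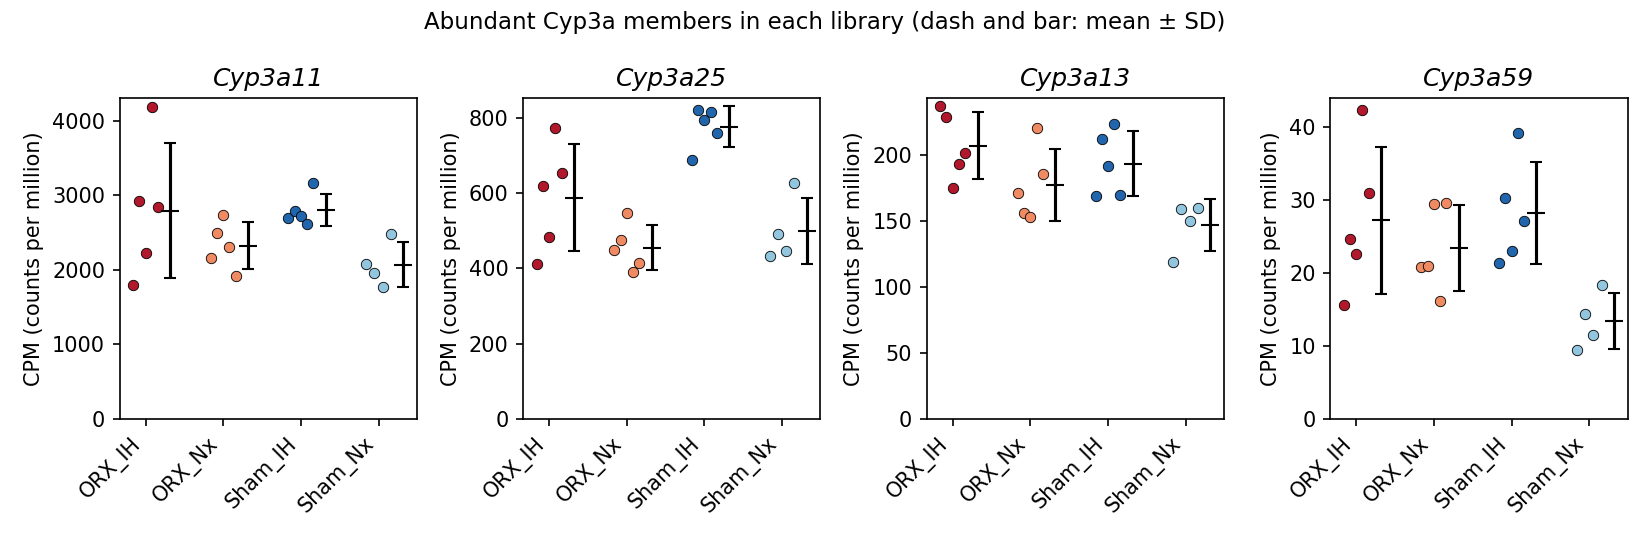
CPM of the 4 abundant members in each library (points) by group, on linear axes that start at 0, with the group mean and SD beside the points. Sham_Nx has the lowest mean for Cyp3a11, Cyp3a13 and Cyp3a59, and Sham_IH has the highest mean for Cyp3a25.

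In ORX_IH against ORX_Nx mice no member was called by edgeR, beside 0.0186% of all genes called higher and 0.0557% lower, and none separated its groups, beside 1.18% of all tested genes separated upwards. At an unadjusted p under 0.05 there were 2, Cyp3a25 and Cyp3a44, again with no share of all tested genes computed. DESeq2, limma-voom and limma-trend called none. Cyp3a44 differed by 1.26 ± 0.56 on the log2 scale (2.39-fold, interval 1.12 to 5.09, edgeR adjusted p = 0.260, exact permutation p = 0.0317), and its ORX_IH and ORX_Nx ranges overlapped through ORX_Nx mouse 2. Averaged over both operations, with the groups weighted equally, intermittent hypoxia was associated with 3 called members, beside 1.96% of all genes called higher and 2.57% lower. They were Cyp3a25 (0.50 ± 0.11 on the log2 scale, edgeR adjusted p = 0.0150), Cyp3a13 (0.31 ± 0.09, edgeR adjusted p = 0.0450) and Cyp3a59 (0.65 ± 0.18, edgeR adjusted p = 0.0467). Cyp3a13 and Cyp3a59 stood close to the threshold: Cyp3a13 lost the call in 15 and Cyp3a59 in 14 of the 19 fits that left out one library, with adjusted p up to 0.0968 and 0.1002, both without Sham_Nx mouse 2. Cyp3a13 kept it without ORX_IH mouse 3, ORX_Nx mouse 4 or 5, or Sham_IH mouse 5, and Cyp3a59 without ORX_IH mouse 1 or 3, ORX_Nx mouse 3 or 5, or Sham_Nx mouse 5. Cyp3a25 kept it in all 19 of those fits (adjusted p up to 0.0373). Without the 4 libraries highest in muscle genes none of the members was called (Cyp3a25 0.51 ± 0.12, Cyp3a13 0.21 ± 0.09 and Cyp3a59 0.69 ± 0.20, with adjusted p of 0.118, 0.3803 and 0.183). Without the 3 libraries highest in pancreatic genes Cyp3a13 was not called (0.33 ± 0.09, adjusted p = 0.1002), and without ORX_Nx mice 4 and 5 Cyp3a59 was not (0.635 ± 0.19, adjusted p = 0.0689). The fit without the 4 libraries highest in muscle genes called 8 genes of the whole table, against 733 with every library. It lacked ORX_IH mice 1 and 2 and Sham_Nx mice 2 and 3, so that these groups were smaller. The parts of group size and of muscle RNA in the lost calls were not tested. Cyp3a44 (1.77 ± 0.56, edgeR adjusted p = 0.0773) and Cyp3a11 (0.35 ± 0.13, edgeR adjusted p = 0.108) were not called, and were called without ORX_Nx mouse 2 (2.09, adjusted p = 0.0259) and without ORX_IH mouse 1 (0.41, adjusted p = 0.0433). DESeq2 called 5 members, all but Cyp3a41a. Averaged over both exposures, orchiectomy was associated with 2 called members, Cyp3a44 (5.24 ± 0.56) and Cyp3a41a (3.71 ± 0.52), beside 11.8% of all genes called higher and 10.1% lower (edgeR adjusted p = 3.84e-06 and 8.42e-05). Cyp3a25 averaged -0.27 ± 0.11 (edgeR adjusted p = 0.0772), and without ORX_IH mouse 4 it was -0.325 (adjusted p = 0.0253). DESeq2 called it (-0.26, adjusted p = 0.0488).

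Mice with both treatments, set against mice with neither, had 4 members called higher, beside 3.53% of all genes, and none lower, beside 5.1%. In 3 of them, Cyp3a44, Cyp3a41a and Cyp3a13, the groups did not overlap, beside 5.69% of all tested genes separated upwards. Cyp3a44 rose by 7.01 ± 0.90 on the log2 scale (edgeR adjusted p = 8.82e-05) and Cyp3a41a by 3.47 ± 0.75 (edgeR adjusted p = 0.00676). Cyp3a59 rose by 1.02 ± 0.27 (2.03-fold, interval 1.42 to 2.91, edgeR adjusted p = 0.0219) and Cyp3a13 by 0.50 ± 0.13 (1.41-fold, interval 1.19 to 1.67, edgeR adjusted p = 0.0188). Without Sham_Nx mouse 2 neither Cyp3a59 nor Cyp3a13 was called (adjusted p = 0.0812 and 0.0747), and Cyp3a59 also lost its call without ORX_IH mouse 4 (0.0540) or Sham_Nx mouse 4 (0.0654). Cyp3a11 (0.43 ± 0.18, edgeR adjusted p = 0.152) was called without ORX_IH mouse 1 (0.56, adjusted p = 0.0486) and without scaling factors (0.53, adjusted p = 0.04705). Without the 4 libraries highest in muscle genes only Cyp3a44 remained called (Cyp3a41a 2.51, adjusted p = 0.254), and without the 3 highest in pancreatic genes Cyp3a44 and Cyp3a59 (Cyp3a41a 2.69, adjusted p = 0.0737). Limma-voom also ended the call of Cyp3a41a (3.22, adjusted p = 0.0725), and without ORX_IH mouse 1 the difference was 2.74 and the call held. The difference of Cyp3a44 was 8.21 without Sham_Nx mouse 5, and its call held.

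**Figure D4:**
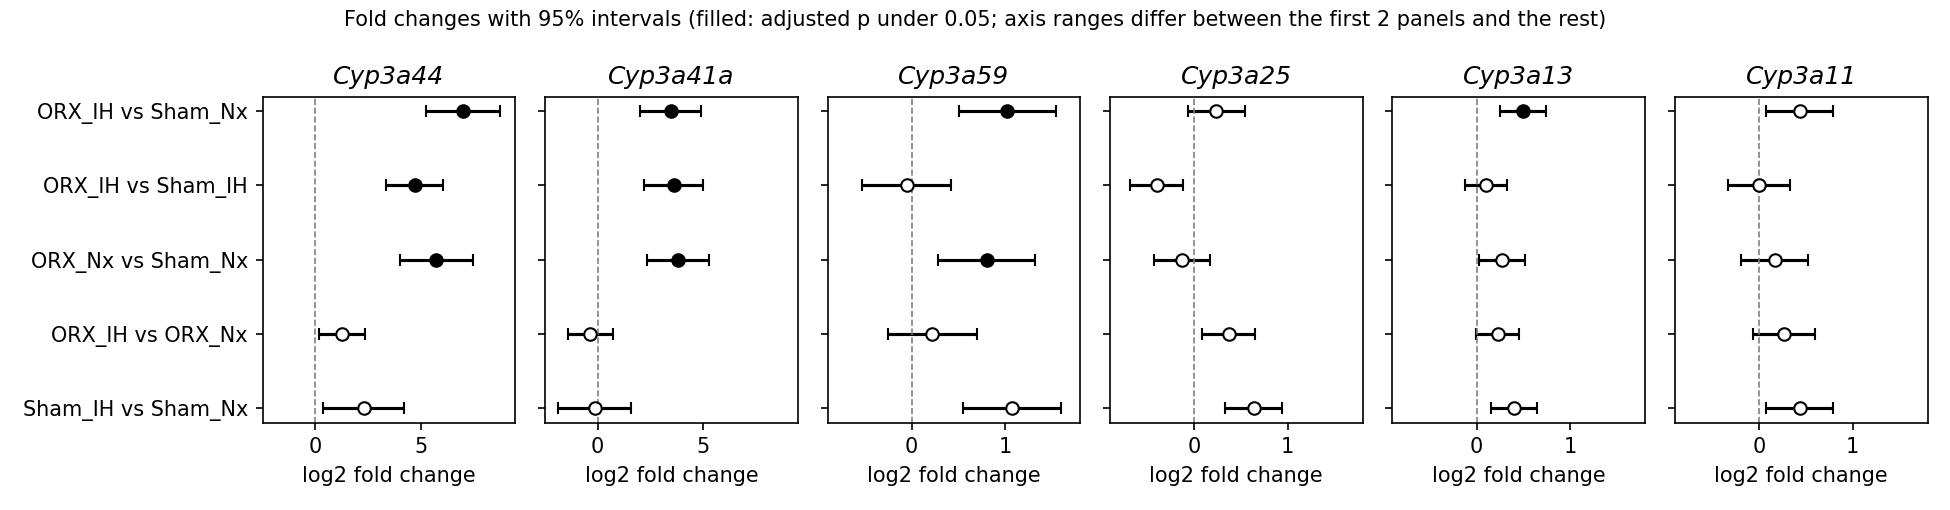
Log2 fold changes of the 6 tested members with 95% intervals in the 5 comparisons between groups (rows), 1 gene to a panel, filled where the edgeR adjusted p was under 0.05. Cyp3a44 and Cyp3a41a lie far to the right of 0 in each comparison of ORX with Sham mice, and the other members stay within 1.07 of 0 on axes that are drawn wider for the first 2 panels.

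Whether the effect of orchiectomy differed between exposures was tested as the interaction. No member and no gene of the table was called by edgeR (0% of all genes), limma-voom called no gene, and DESeq2 called 63 genes but no member. At an unadjusted p under 0.05, for which no share of all tested genes was computed, there was 1 member, Cyp3a59. Its interaction was -0.855 ± 0.36 on the log2 scale (interval -1.56 to -0.15, edgeR adjusted p = 0.752). The difference between ORX and Sham mice was thus 0.80 in normoxia and -0.05 under intermittent hypoxia for Cyp3a59, a contrast that failed the correction. The interaction of Cyp3a44 was -1.03 ± 1.12 (interval -3.23 to 1.16), too wide to tell additive from non-additive effects.

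The authors' deposited table gives 1 test per gene for any difference among the 4 groups. By its q-value Cyp3a44 (0.000282), Cyp3a41a (0.00553) and Cyp3a25 (0.0328) were under 0.05, and Cyp3a59 (0.113), Cyp3a13 (0.133), Cyp3a11 (0.498), Cyp3a41b (0.7104) and Cyp3a16 (0.939) were not, per the authors' deposited table.

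The genes known to act on Cyp3a expression were read from a list of 26 regulators, 25 of them tested. In ORX_Nx against Sham_Nx mice 3 were called higher and 1 lower, beside 7.88% of all genes called higher and 6.46% lower, with a median log2 difference of -0.04 beside 0.01 over all genes. Ppargc1a, a transcriptional coactivator, rose by 0.825 ± 0.17, Stat5b, which carries the growth hormone signal, by 0.43 ± 0.10, and Cux2, a homeobox factor known as female-predominant in mouse liver, by 1.52 ± 0.34 (edgeR adjusted p = 0.00544, 0.00773 and 0.00840). In ORX_IH against Sham_IH mice Cux2 rose by 1.625 ± 0.31 and Bcl6, a repressor known as male-predominant in mouse liver, fell by 2.96 ± 0.56 (edgeR adjusted p = 0.00675 and 0.0059), beside 1.31% of all genes called higher and 1.57% lower, with a list median of 0.10 beside 0.00 over all genes. Bcl6 was not the regulator called lower in normoxia, where its difference was -0.333 ± 0.545 (edgeR adjusted p = 0.7257). Its values ran from 9.298 to 71.67 CPM in ORX_Nx and from 14.84 to 87.85 CPM in Sham_Nx mice. Under intermittent hypoxia they ran from 8.516 to 9.752 CPM in ORX_IH and from 35.45 to 110.1 CPM in Sham_IH mice. Cux2 was also the 1 regulator called for intermittent hypoxia averaged over both operations, at 1.465 ± 0.23 (edgeR adjusted p = 0.00326). It averaged 22.7 ± 11.1 CPM in ORX_IH, 7.96 ± 1.84 in ORX_Nx, 7.37 ± 2.70 in Sham_IH and 2.76 ± 0.48 CPM in Sham_Nx mice.
The receptors themselves were called in no comparison between groups. Nr1i2 (PXR) averaged 43.1 ± 11.4 CPM in ORX_IH, 46.5 ± 6.73 in ORX_Nx, 42.8 ± 5.87 in Sham_IH and 41.2 ± 2.41 CPM in Sham_Nx mice, and its difference between ORX_Nx and Sham_Nx mice was 0.18 ± 0.15 on the log2 scale (edgeR adjusted p = 0.466). Nr1i3 (CAR) averaged 238 ± 25.6 CPM in ORX_IH, 287 ± 120 in ORX_Nx, 222 ± 37.2 in Sham_IH and 210 ± 42.1 CPM in Sham_Nx mice, and the same difference was 0.45 ± 0.26 (edgeR adjusted p = 0.269).

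Of 24 other PXR and CAR target genes tested, 9 were called higher and none lower in ORX_Nx against Sham_Nx mice, beside 7.88% of all genes called higher and 6.46% lower, with a median log2 difference of 0.52 beside 0.01 over all genes. For orchiectomy averaged over both exposures 11 were higher and 2 lower, beside 11.8% and 10.1% of all genes. The 4 with the smallest adjusted p in ORX_Nx against Sham_Nx mice were Slco1a4, Abcb1a, Abcc4 and Cyp2c37. In that comparison Slco1a4, an organic anion transporter, rose by 2.30 ± 0.23 and Abcb1a, a drug efflux pump, by 1.69 ± 0.25. Abcc4, a basolateral efflux pump, rose by 1.19 ± 0.23 and the P450 Cyp2c37 by 1.465 ± 0.35 (edgeR adjusted p between 6.17e-06 and 0.0107 for the 4). Under intermittent hypoxia (ORX_IH against Sham_IH) 4 were higher and none lower, beside 1.31% and 1.57% of all genes (median 0.20 beside 0.00): Slco1a4 (1.12 ± 0.21), Abcb1a (1.03 ± 0.23), Cyp2b10 (2.33 ± 0.52) and Abcc3 (0.37 ± 0.09). In Sham_IH against Sham_Nx mice 1 was higher, Slco1a4, by 1.46 ± 0.22 (edgeR adjusted p = 0.0147), beside 0.099% of all genes called higher, with a list median of 0.06 beside 0.01. In ORX_IH against Sham_Nx mice 8 were higher and 1 lower, beside 3.53% and 5.1% of all genes. For intermittent hypoxia averaged over both operations Slco1a4 was higher (0.87 ± 0.15, edgeR adjusted p = 0.00481) and Gsta1, a glutathione transferase, lower (-2.38 ± 0.45, edgeR adjusted p = 0.00898), beside 1.96% and 2.57% of all genes. The list was chosen with earlier results of these data known.
Among 12 other steroid and bile acid hydroxylating P450s 4 were higher and 4 lower in ORX_Nx against Sham_Nx mice, beside 7.88% and 6.46% of all genes (median 0.24 beside 0.01). Cyp2a4, a steroid 15-alpha hydroxylase, rose by 7.48 ± 0.62 and Cyp2b9 by 8.58 ± 1.05, while Cyp7b1, an oxysterol hydroxylase, fell by 2.51 ± 0.28 and Cyp2d9, a male-predominant steroid 16-alpha hydroxylase, by 2.77 ± 0.35 (edgeR adjusted p between 1.28e-06 and 6.67e-05). Cyp2d9 is also one of the 5 genes used to check the operation. In ORX_IH against Sham_IH mice 2 were higher and 2 lower, beside 1.31% and 1.57% of all genes (median 0.13 beside 0.00), namely Cyp2a4 at 7.04 ± 0.57, Cyp2b9 at 5.44 ± 0.81, Cyp7b1 at -1.997 ± 0.27 and Cyp2d9 at -2.18 ± 0.33.
Of 14 genes that supply electrons and haem, none was called higher and 1 lower by edgeR in ORX_Nx against Sham_Nx mice, beside 7.88% and 6.46% of all genes, with a list median of -0.02 beside 0.01 over all genes. The list median was -0.04 beside 0.00 in ORX_IH against Sham_IH and 0.02 beside 0.01 in Sham_IH against Sham_Nx mice. Por, the P450 reductase, averaged 353 ± 36.6 CPM in ORX_IH, 341 ± 32.9 in ORX_Nx, 309 ± 47.3 in Sham_IH and 297 ± 46.3 CPM in Sham_Nx mice, and Alas1, the first enzyme of haem synthesis, 433 ± 152, 464 ± 353, 390 ± 94.8 and 397 ± 166 CPM in the same order, with no call for either.

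Likeness across the 19 libraries was described by Pearson's r of log2 CPM, without a test, since libraries of a group share their treatment. The genes outside the family most like Cyp3a44 were Cyp2b9 (r = 0.942), Abcd2 (0.939) and Slc22a27 (0.938), and those most like Cyp3a41a were Plaat3 (0.920), Slc22a26 (0.892) and Snx12 (0.889). With group means removed these values fell to between 0.388 and 0.755, so that the likeness is lower once the difference between groups is taken out. Cyp3a44 and Cyp3a41a correlated with each other at 0.823 over all libraries and at 0.270 within groups. Cyp3a25 was most like Cyp2d11 (0.871), Hsbp1l1 (0.848) and Olfr1129 (0.848), Cyp3a11 most like Ece1 (0.805), Olfr1129 (0.792) and Cyp2d22 (0.783), and Cyp3a59 most like Ggh (0.871), Rbm3 (0.855) and Gpi1 (0.834). Cyp3a13 was most like Ldb1 (0.852) and 2 acute phase genes, Serpina3n (0.833) and Itih3 (0.813). Within groups Cyp3a11 and Cyp3a25 correlated at 0.863 and Cyp3a25 and Cyp3a59 at 0.833, while Cyp3a13 stayed between -0.263 and 0.246 with every other member.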

How the data were processed

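Liver RNA of 19 of 20 labelled mice was analysed. Per the labels' protocols, total RNA from frozen liver was enriched for poly(A) and made into strand-specific libraries; per the submitters' processing notes the tools were bcl2fastq 2.20, fastp 0.23.2, FastQC 0.11.9, MultiQC 1.12 and kallisto 0.46.1, with build GRCm39. The authors' deposited estimated counts per gene (27.5% of values not whole, 29.3 to 69.6 M per library) were rounded and tested with edgeR 4.0.16 in R 4.3.3: filterByExpr with a minimum count of 10, TMM scaling, a group-means quasi-likelihood fit over all 4 groups, and Benjamini-Hochberg adjustment over 16164 genes, with a threshold of 0.05. SEs were derived from the F statistic, and intervals are 95% normal intervals. Exact two-sided permutation tests worked on log2 CPM (prior count 1). The authors also deposited a table of log2 expression values, whose median absolute difference from the log2 RPKM computed here was 0.076 over 12322 genes, and per gene an F score, a p-value and a q-value; no source used here states how these were made. The fit was tested on simulated data. Alternatives were other scalings and filters, DESeq2 1.42.0, limma 3.58.1 on the counts and on the deposited log2 table, a replicate block and left-out libraries. No 2 libraries were copies (chi-square per degree of freedom 19.3 or more in 36 pairs within groups). Members and gene lists were chosen with earlier results of these data known. All members were described, with the 3 genes outside the family most like each tested one, and list genes were named by the smallest adjusted p. Promoters are from RefSeq on GRCm38.p6 and transcripts from GENCODE M21, used for sequence and gene order; coding identity was computed by global alignment with Biopython 1.88 in place of a planned protein identity. Results of some list genes are not reported here.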

Additional observations from a re-analysis of the deposited data

Results flagged for a closer look

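In 6 of 29 groups of 4 or 5 libraries checked, 1 library lay far from the others of its group in a member's CPM. The rule flags about 1 in 20 groups of normally distributed values. CPM from few counts is not so distributed, and the 6 flags cannot be read as an excess. Cyp3a44 was at 6.161 CPM in ORX_Nx mouse 2, above the other ORX_Nx mice, and at 0.675 CPM in Sham_IH mouse 5, above the other Sham_IH mice. Cyp3a41a was at 1.671 CPM in ORX_IH mouse 1. Cyp3a41b was at 0.1171 CPM in ORX_Nx mouse 1, the 1 orchiectomized library with counts of that copy. Cyp3a16 was at 0.07205 CPM in ORX_IH mouse 1 and at 0.1311 CPM in ORX_Nx mouse 2, from 5.00 and 7.00 counts. Sham_IH mouse 5 and ORX_IH mouse 1 are also among the 3 libraries highest in pancreatic genes (1402 and 251 CPM), and the part of those genes in these values was not tested.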

How the results depend on the processing

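Of 48 log2 differences of tested members, 14 were called; 5 of these kept their call in every fit that tested them (a minimum count of 50 removed Cyp3a41a, whose average for orchiectomy is one of the 5), none reversed, and 11 of the 34 uncalled ones reversed somewhere. The cause was not tested for any of these changes. Members called in ORX_Nx against Sham_Nx numbered 3 with every library, 1 with limma-voom, 4 without scaling and 2 or 3 in the other settings (2 to 3 leaving out 1 library). In ORX_IH against Sham_IH the number was 1 with a minimum count of 50, with limma-voom, and without the muscle or the pancreas libraries (2 to 3 leaving out 1 library). In Sham_IH against Sham_Nx it was 2 with DESeq2, with only the compared groups, and without ORX_Nx mice 4 and 5 (0 to 1 leaving out 1 library). In ORX_IH against Sham_Nx it was 1 without the muscle and 2 without the pancreas libraries (2 to 5 leaving out 1 library). For orchiectomy on average it was 4 without scaling and 1 with a minimum count of 50 (2 to 3 leaving out 1 library), and for intermittent hypoxia on average 1 without scaling, without a filter or in library numbers 1 to 16, 5 with DESeq2 and 0 without the muscle libraries (1 to 3 leaving out 1 library). The number of members called stayed at 0 for ORX_IH against ORX_Nx and for the interaction in the 19 fits leaving out 1 library. Library numbers lead the sample labels, and those above 16 belong to mouse 5 of each group. The numbers from 1 to 16 run in blocks by group, so their order cannot be told apart from the groups.
Genes called over the whole table numbered 2319 in ORX_Nx against Sham_Nx, but 422 without the muscle libraries, 1101 without the pancreas libraries, 1475 without ORX_Nx mice 4 and 5 and 918 with only the compared groups (1142 to 2662 leaving out 1 library). In ORX_IH against Sham_IH they numbered 465, but 107 without the muscle and 158 without the pancreas libraries, 912 without ORX_Nx mice 4 and 5, 971 without scaling and 867 with DESeq2 (224 to 704). In Sham_IH against Sham_Nx they numbered 49, but 2 without the muscle and 0 without the pancreas libraries, 305 without ORX_Nx mice 4 and 5, 483 with only the compared groups and 413 with DESeq2 (1 to 197). In ORX_IH against ORX_Nx they numbered 12, but 0 without the muscle or the pancreas libraries, without a filter or with the replicate block, 1 with only the compared groups, 40 without ORX_Nx mice 4 and 5 and 712 with DESeq2 (0 to 232). In ORX_IH against Sham_Nx they numbered 1394, but 132 without the muscle and 504 without the pancreas libraries (807 to 1884). For orchiectomy on average they numbered 3549, but 1306 and 2063 without those libraries (2790 to 3797). For intermittent hypoxia on average they numbered 733, but 8 and 157 without those libraries, 472 without a filter and 1444 with DESeq2 (288 to 1005).
The reversed log2 differences were all uncalled. Cyp3a11 in ORX_IH against Sham_IH (-0.002) was 0.006 with RLE, without a filter and with DESeq2, 0.031 with upper quartile scaling, 0.116 without scaling, 0.009 with a minimum count of 50, 0.007 with only the compared groups and without ORX_Nx mice 4 and 5, 0.147 without the muscle and 0.17 without the pancreas libraries, 0.046 in numbers 1 to 16, and -0.194 to 0.121 leaving out 1 library. Cyp3a59 there was 0.066 without scaling, 0.184 without the muscle and 0.08 without the pancreas libraries, and -0.272 to 0.106 leaving out 1 library; Cyp3a13 was -0.021 without the muscle libraries. Cyp3a25 in ORX_Nx against Sham_Nx was 0.017 in numbers 1 to 16. Cyp3a41a was 0.02 with limma-voom and 0.029 with limma-trend in Sham_IH against Sham_Nx (-0.393 to 0.25 leaving out 1 library), 0.058 with limma-voom in ORX_IH against ORX_Nx (-1.077 to 0.302) and 0.039 for intermittent hypoxia on average (-0.611 to 0.079). Cyp3a11 for orchiectomy on average was -0.013 to 0.144 leaving out 1 library. In the interaction Cyp3a11 was 0.026 without the muscle libraries, Cyp3a41a 0.038 with limma-voom, 0.05 with the replicate block and -0.932 to 0.447 leaving out 1 library, and Cyp3a44 -2.234 to 0.128.
Replicate numbers did not pair the samples: over 27 pairs of same-numbered libraries r ran from -0.197 to 0.395, with 5 above 0.1, and 6 libraries correlated best with their own number. With the replicate block 3, 2, 0, 0 and 4 members were called in the comparisons of ORX_Nx with Sham_Nx, ORX_IH with Sham_IH, Sham_IH with Sham_Nx, ORX_IH with ORX_Nx and ORX_IH with Sham_Nx, 2 for orchiectomy on average, 2 for intermittent hypoxia on average (Cyp3a13 at 0.31, adjusted p = 0.0672) and 0 for the interaction. Depth limits Cyp3a16, Cyp3a41b and the sham levels of Cyp3a44 and Cyp3a41a, which rest on few counts.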

Other observations

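The table holds 3 further Cyp3a rows. Cyp3a63-ps, a pseudogene by its symbol, had 14.3, 0, 0, 2.02 and 4.00 counts in ORX_IH mice 1 to 5 and 11.1, 8.43, 6.13, 2.00 and 4.00 in ORX_Nx mice 1 to 5, against 0, 0, 0, 0 and 1.00 in Sham_IH mice 1 to 5 and 0, 0, 1.00 and 1.00 in Sham_Nx mice 2 to 5; it did not pass the filter on low counts and was not tested. Cyp3a57, the neighbour of Cyp3a16, averaged 0.179 ± 0.119 CPM in ORX_IH, 0.192 ± 0.0784 in ORX_Nx, 0.167 ± 0.111 in Sham_IH and 0.296 ± 0.0808 CPM in Sham_Nx mice, and its difference between ORX_Nx and Sham_Nx mice was -0.60 ± 0.47 on the log2 scale (edgeR adjusted p = 0.423). Cyp3a61-ps1 had 1.00 count, in ORX_IH mouse 4.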
